A study of Homo sapiens with 8 samples.

Results

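The p53 target genes described here are 35 genes known to be induced by the transcription factor p53, taken as a written list and matched to the arrays by gene symbol. Of these, 33 had a named probe set among the 33297 probe sets of the table, which cover 20172 genes, and BTG2 and FDXR were not analysed here. Each of the 33 was read by 1 probe set with 1 symbol. Transcripts were measured on 8 arrays, 1 for each of 4 transfections in 2 established human prostate cancer lines, LNCaP and DU145. LNCaP is taken here as a line with wild-type p53 and DU145 as a line with mutant p53. That status was not measured on these arrays. LNCaP was measured with an siRNA against TET2 (siTET2), a control siRNA (siControl), the microRNA miR-29b and a control microRNA (nc), and DU145 with the same 4 constructs. All cells grew in RPMI medium with serum and were collected 72 hours after transfection. The sequence of the siRNAs and the separate dishes behind the arrays are not given in the sources used here. No group had a replicate, so a contrast within a line is the difference of 2 arrays and has no p-value. All differences are in log2 units, and this takes the deposited values to be log2 values.

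p53 is a transcription factor that is held low by the ubiquitin ligase MDM2 and becomes stable when DNA is damaged or cells are stressed. It then binds a paired DNA element in its target genes and raises transcripts for cell cycle arrest, cell death, DNA repair and metabolism, together with MDM2 itself, which closes a feedback loop.

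TET2, whose product oxidises the methyl group of methylated cytosines, checks the siRNA. It had log2 values of 7.89 with siTET2 and 9.01 with siControl in LNCaP, and of 6.60 with siTET2 and 7.85 with siControl in DU145. It fell by 1.18 on the log2 scale over both lines (SE 0.124, adjusted p = 0.0181, limma). With the DU145 siTET2 array or either siControl array left out, limma called 0 genes for siTET2 in both lines, so this call and those of TP53INP1, PERP and CDK1 given further on rest on these arrays. With miR-29b minus nc, TET2 differed by -0.64 in LNCaP and by -0.18 in DU145. Of 8 markers of LNCaP, 7 or 8 lay above the array's median on the LNCaP arrays and 1 on the DU145 arrays. Of 11 markers of DU145, 1 lay above it on the LNCaP arrays and 11 on the DU145 arrays. Immune cell markers above the median numbered 1 or 2 of 9, and fibroblast markers 0 or 1 of 8. The median over all probe sets was 7.10 to 7.17 on the LNCaP arrays and 6.59 to 6.66 on the DU145 arrays, so levels are set across the lines only as percentiles of an array or after centring.

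The microRNA is shown first because its seed, bases 2 to 8 in capitals, is the part that pairs with target transcripts. The sequence is the 3p arm in RefSeq (GRCh38.p14), encoded on chromosomes 1 and 7, and the labels do not name the arm that was transfected.
hsa-miR-29b-3p: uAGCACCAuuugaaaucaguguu

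The DNA letters that p53 is known to read were looked for in the promoters of the targets, from 250 bases before to 50 bases after each RefSeq gene start. The search took the p53 consensus element by name, 2 units of 10 bases with a spacer of at most 1 base and at most 3 mismatches, and kept the C and G at the core of each unit fixed. The element reads the same on both strands. A match was present in 7 of the 26 measured targets that had a promoter window, and in 2.91% of 27305 genes. They are printed because they are the targets whose promoter window holds such letters, with the element in capitals and the strand of the gene. A match describes these letters and is no evidence of binding.
AEN, chr15:88621306-88621325, plus strand, 2 mismatches: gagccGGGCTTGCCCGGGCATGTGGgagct
DDB2, chr11:47214979-47214999, plus strand, 0 mismatches and a spacer of 1 base: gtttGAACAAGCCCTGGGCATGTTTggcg
FAS, chr10:88991309-88991328, plus strand, 2 mismatches: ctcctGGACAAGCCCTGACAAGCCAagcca
GDF15, chr19:18386186-18386205, plus strand, 3 mismatches: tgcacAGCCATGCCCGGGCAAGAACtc
MDM2, chr12:68808923-68808942, plus strand, 2 mismatches: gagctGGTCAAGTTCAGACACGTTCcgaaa
RPS27L, chr15:63157527-63157546, minus strand, 3 mismatches: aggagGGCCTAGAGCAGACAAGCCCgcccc
SESN1, chr6:109009018-109009037, minus strand, 3 mismatches: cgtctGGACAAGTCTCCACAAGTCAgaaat

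With siTET2 minus siControl, 27 of the 33 p53 targets lay above 0 in LNCaP, with a median difference of 0.18 and a range of -0.60 (DRAM1) to 0.74 (CDKN1A). In DU145 16 of the 33 lay above 0, with a median of -0.04 and a range of -0.83 (CCNG1) to 0.69 (TNFRSF10B). The targets sorted into 15 that were above 0 in both lines, 12 in LNCaP but not in DU145, 1 in DU145 but not in LNCaP, and 5 in neither. The share of all genes in each of these classes was not counted, so the sort describes the targets only. These counts compare 2 arrays per line and were not tested as a list. Each array measured RNA from all cells of a sample, so more RNA per cell and more cells that make it cannot be told apart.

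For a background, genes were counted whose mean over the 4 arrays of a line reached the median gene's mean, 9498 genes in each line. Of the targets, 27 reached this floor in LNCaP and 23 in DU145. Of the 12 above 0 in LNCaP but not in DU145, EDA2R lay below both floors. SPATA18 and RPS27L lay below the DU145 floor, and TP53I3 below the LNCaP floor. In LNCaP 22 of the 27 were above 0 with siTET2, against 53.0% of genes, and their median was 0.18 beside 0.01 for genes. In DU145 10 of the 23 were above 0, against 46.8% of genes, and their median was -0.05 beside -0.01 for genes. Of the 20 targets above the floor in both lines, 13 had the larger difference in LNCaP, against 52.0% of genes. Set against nc in place of siControl, 21 of the 27 were above 0 in LNCaP (54.7% of genes) and 10 of the 23 in DU145 (42.1% of genes). At least 1.5-fold higher with siTET2 were 2 of the 27 in LNCaP, against 0.337% of genes, and 1 of the 23 in DU145, against 0.779%. At least 1.5-fold lower were 1 of the 27 in LNCaP, against 2.22% of genes, and 1 of the 23 in DU145, against 1.52%.

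**Figure D1:**
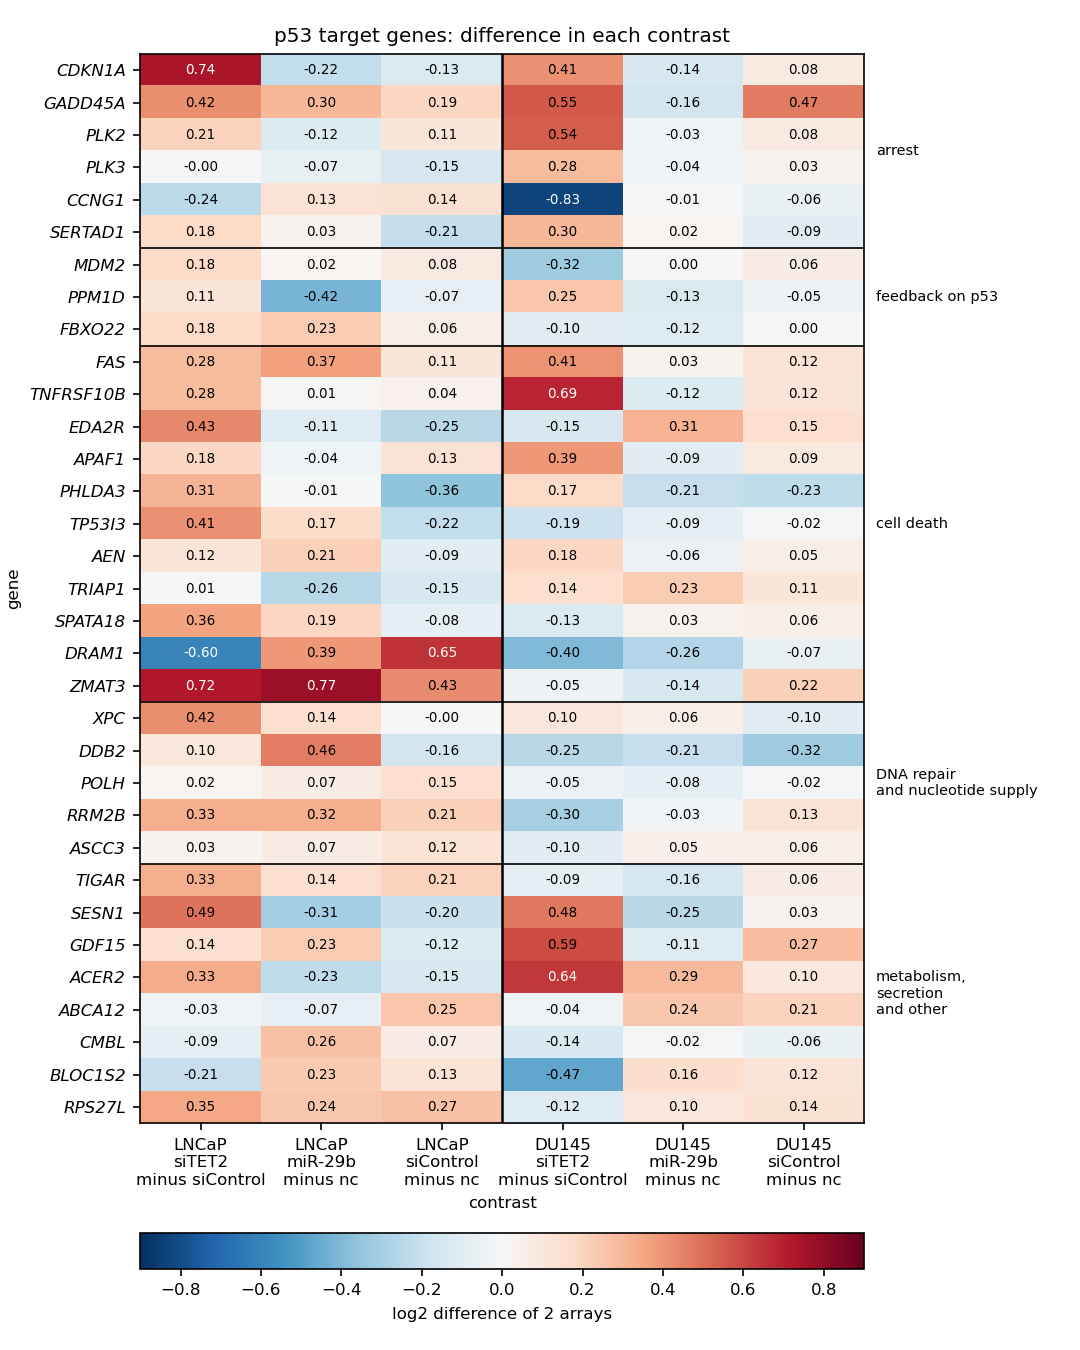
Log2 difference of 2 arrays for the 33 measured p53 target genes (rows, grouped by role) in 6 contrasts (columns, LNCaP on the left and DU145 on the right), with red for higher and blue for lower in the first-named construct. CDKN1A and ZMAT3 stand at 0.74 and 0.72 in LNCaP with siTET2, and CCNG1 at -0.83 in DU145 with siTET2.

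Within LNCaP, the siTET2 array was the highest of the 4 arrays for 17 of the 27 targets above the floor, and for 27.7% of genes. It was the lowest for 3 of the 27, and for 22.7% of genes. Within DU145, the siTET2 array was the highest for 9 of the 23 targets (30.1% of genes) and the lowest for 9 (39.0% of genes).

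**Figure D2:**
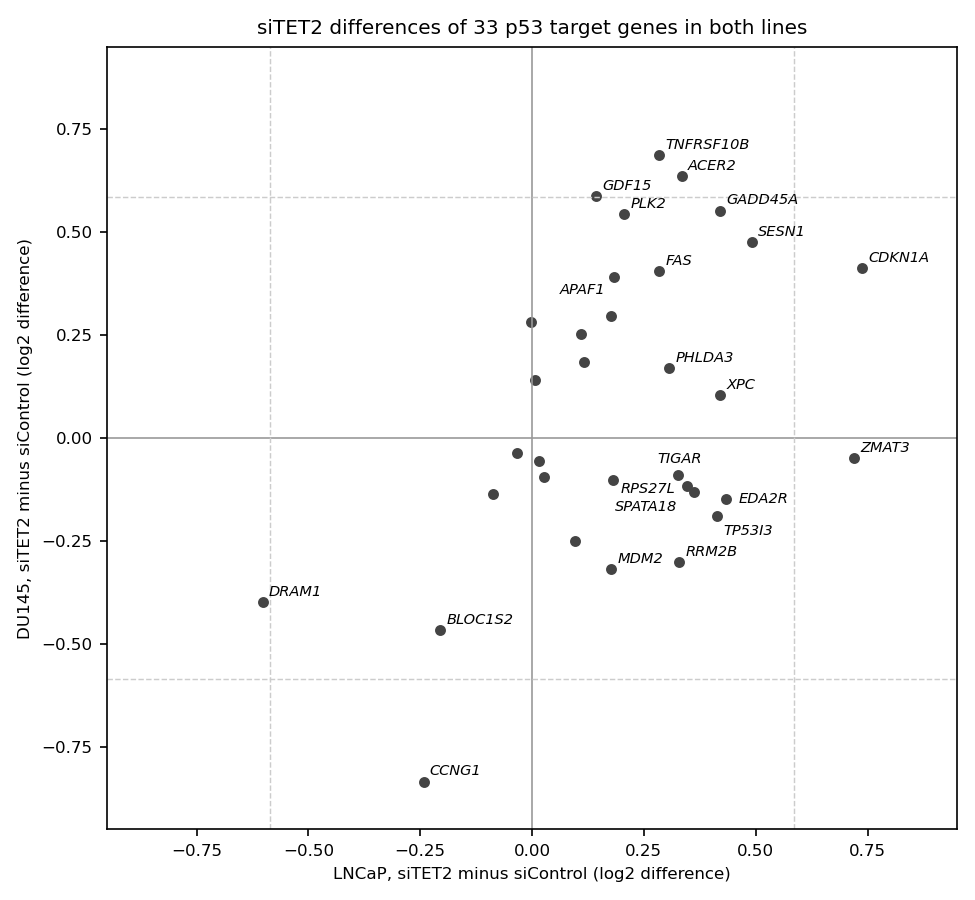
Log2 difference of siTET2 minus siControl for the 33 measured p53 target genes, LNCaP on the horizontal and DU145 on the vertical axis; each point is 1 gene, genes past 0.3 in either line are named, and dashed lines mark 1.5-fold. A group with CDKN1A, SESN1, GADD45A and TNFRSF10B lies above 0 in both lines, and ZMAT3, RRM2B and MDM2 lie above 0 in LNCaP and below 0 in DU145.

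Among the genes of cell cycle arrest, 4 of 6 were above 0 with siTET2 in LNCaP and 5 of 6 in DU145. PLK3 and SERTAD1 of these 6 lay below the floor of each line. Beside this and the role groups that follow, 53.0% of genes above the floor were above 0 in LNCaP and 46.8% in DU145. The role groups are small and were not tested. CDKN1A, which encodes the cyclin-dependent kinase inhibitor p21 (probe set 8119088), had log2 values in LNCaP of 10.03 with siTET2 and 9.29 with siControl, and of 9.20 with miR-29b and 9.42 with nc. In DU145 it had 8.59 with siTET2 and 8.18 with siControl, and 7.95 with miR-29b and 8.09 with nc. In each line the siTET2 array was the highest of the 4 and the miR-29b array the lowest. The siTET2 difference was 0.74 in LNCaP, or 1.67-fold, and 0.41 in DU145, or 1.33-fold. The control arrays of a line lay closer together, with siControl minus nc at -0.13 in LNCaP and 0.08 in DU145.

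CCNG1, which encodes cyclin G1, a partner of protein phosphatase 2A in the control of MDM2 (probe set 8109697), was lowest with siTET2 in both lines, by a wider gap in DU145. In LNCaP it had 12.31 with siTET2 and 12.55 with siControl, and 12.54 with miR-29b and 12.41 with nc. In DU145 it had 10.30 with siTET2 and 11.13 with siControl, and 11.18 with miR-29b and 11.19 with nc. The other 3 DU145 arrays lay close together, all above the siTET2 array. The siTET2 difference was -0.24 in LNCaP and -0.83 in DU145, and siControl minus nc was 0.14 in LNCaP and -0.06 in DU145.

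GADD45A, a stress protein of growth arrest, was higher with siTET2 in both lines, by 0.42 in LNCaP and 0.55 in DU145. Its values, shown because they vary between the controls and chosen after they were seen, were 7.94 with siTET2, 7.52 with siControl, 7.62 with miR-29b and 7.33 with nc in LNCaP. In DU145 they were 8.63 with siTET2, 8.07 with siControl, 7.44 with miR-29b and 7.60 with nc. In DU145 siControl itself stood 0.47 above nc, close in size to the siTET2 difference. The polo-like kinase genes PLK2 and PLK3 were nearer 0 in LNCaP with siTET2. PLK2 differed by 0.21 in LNCaP and 0.54 in DU145, and PLK3 by -0.0016 in LNCaP and 0.28 in DU145. SERTAD1, a regulator of CDK4 and E2F, differed by 0.18 in LNCaP and 0.30 in DU145. With miR-29b minus nc the 6 arrest genes ranged from -0.22 to 0.30 in LNCaP and from -0.16 to 0.02 in DU145.

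The genes that feed back on p53 were all above 0 with siTET2 in LNCaP, and 1 of 3 was in DU145. MDM2, the ubiquitin ligase that degrades p53 (probe set 7956989), had log2 values in LNCaP of 11.87 with siTET2 and 11.69 with siControl, and of 11.63 with miR-29b and 11.61 with nc. DU145 cells had 10.02 with siTET2 and 10.34 with siControl, and 10.28 with miR-29b and 10.27 with nc. The siTET2 array was thus the highest of LNCaP and the lowest of DU145, with siTET2 minus siControl at 0.18 in LNCaP and -0.32 in DU145. The control arrays differed by 0.08 in LNCaP and 0.06 in DU145. With miR-29b, MDM2 lay within 0.02 of nc in both lines.

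PPM1D, the phosphatase WIP1 that removes phosphates from p53 and its kinases (probe set 8008922), is also on the list of known miR-29 targets. In LNCaP it had 9.85 with siTET2 and 9.74 with siControl, and 9.39 with miR-29b and 9.81 with nc. The DU145 values were 9.07 with siTET2 and 8.82 with siControl, and 8.74 with miR-29b and 8.86 with nc. The miR-29b array was the lowest of each line, with miR-29b minus nc at -0.42 in LNCaP and -0.13 in DU145. FBXO22, an F-box protein of a ubiquitin ligase that acts on p53, differed by 0.18 with siTET2 in LNCaP and by -0.10 in DU145.

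**Figure D3:**
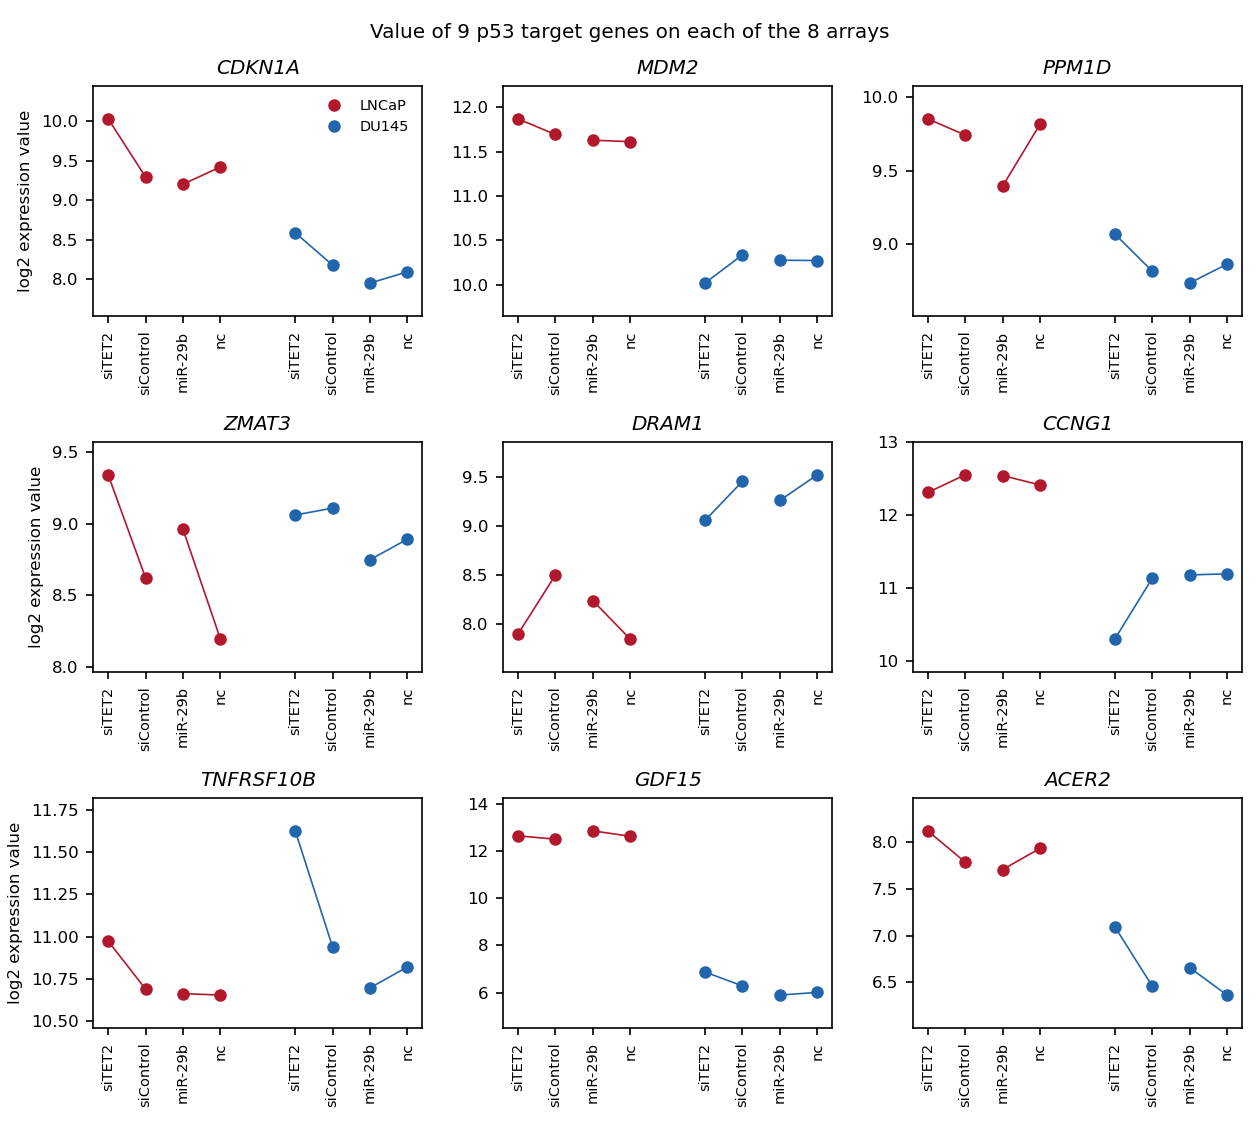
Deposited log2 value of 9 p53 target genes on each of the 8 arrays (LNCaP in red on the left, DU145 in blue on the right of each panel); each point is 1 array, a line joins a construct to its own control, and each panel has its own vertical axis. CDKN1A is highest with siTET2 in both lines, whereas MDM2 is highest with siTET2 in LNCaP and lowest with siTET2 in DU145.

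Of the 11 genes of cell death and quality control, 10 were above 0 with siTET2 in LNCaP (median 0.28) and 6 in DU145 (median 0.14). The death receptor genes TNFRSF10B and FAS were above 0 in both lines. TNFRSF10B, the TRAIL receptor DR5 (probe set 8149733), had 10.97 with siTET2 and 10.69 with siControl in LNCaP, and 10.66 with miR-29b and 10.66 with nc. The DU145 arrays gave 11.63 with siTET2 and 10.94 with siControl, and 10.70 with miR-29b and 10.82 with nc. The siTET2 array was the highest of each line, and it stood over siControl by 0.28 in LNCaP and 0.69 in DU145, and the other 3 LNCaP arrays lay close together. FAS, the receptor of the Fas ligand, differed by 0.28 in LNCaP and 0.41 in DU145. APAF1, the scaffold of the apoptosome, differed by 0.18 in LNCaP and 0.39 in DU145.

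ZMAT3, an RNA-binding zinc finger protein (probe set 8092230), was higher with both siTET2 and miR-29b in LNCaP. In LNCaP it had 9.34 with siTET2 and 8.62 with siControl, and 8.96 with miR-29b and 8.19 with nc. In DU145 it had 9.06 with siTET2 and 9.11 with siControl, and 8.75 with miR-29b and 8.89 with nc. The LNCaP differences were 0.72 for siTET2, or 1.65-fold, and 0.77 for miR-29b, or 1.70-fold, and in DU145 they were -0.05 for siTET2 and -0.14 for miR-29b. The LNCaP controls also differed, with siControl 0.43 above nc. Against the other control of the line, the LNCaP difference was 1.15 for siTET2 and 0.34 for miR-29b.

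DRAM1, a lysosomal membrane protein of autophagy (probe set 7958019), was the target furthest below 0 with siTET2 in LNCaP. It had 7.90 with siTET2 and 8.50 with siControl in LNCaP, and 8.24 with miR-29b and 7.85 with nc. On the DU145 arrays it had 9.06 with siTET2 and 9.46 with siControl, and 9.26 with miR-29b and 9.53 with nc. In LNCaP the siControl array was the high one, 0.65 above nc, and siTET2 differed from nc by 0.05. In DU145 siTET2 was the lowest array, at -0.40 from siControl and -0.47 from nc.

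The other genes of this group differed in LNCaP with siTET2 by 0.0057 to 0.43. EDA2R, a receptor of the tumour necrosis factor family, differed by 0.43 in LNCaP and -0.15 in DU145. TP53I3, a quinone oxidoreductase, differed by 0.41 in LNCaP and -0.19 in DU145. SPATA18, a protein of mitochondrial quality control, differed by 0.36 in LNCaP and -0.13 in DU145. These 3 genes were above 0 in LNCaP and below 0 in DU145. EDA2R lay below the level floor of each line, SPATA18 below that of DU145 and TP53I3 below that of LNCaP. PHLDA3, an inhibitor of AKT signalling, differed by 0.31 in LNCaP and 0.17 in DU145, beside siControl minus nc of -0.36 in LNCaP and -0.23 in DU145. AEN, an apoptosis-enhancing nuclease, differed by 0.12 in LNCaP and 0.18 in DU145, and TRIAP1, an inhibitor of apoptosis, by 0.0057 in LNCaP and 0.14 in DU145.

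All 5 genes of DNA repair and nucleotide supply were above 0 with siTET2 in LNCaP, and 1 was in DU145. The 1 in DU145 was XPC, which lay below the DU145 floor. All 5 were also above 0 with miR-29b in LNCaP, against 56.0% of genes above the floor, and 2 were in DU145, against 34.8%. RRM2B, the p53-induced subunit of ribonucleotide reductase, had 9.99 with siTET2 and 9.66 with siControl in LNCaP, and 9.78 with miR-29b and 9.45 with nc. DU145 cells had 8.38 with siTET2 and 8.68 with siControl, and 8.53 with miR-29b and 8.56 with nc. The siTET2 array was the highest of LNCaP and the lowest of DU145, at 0.33 from siControl in LNCaP and -0.30 in DU145. These arrays, like those of DDB2, SESN1 and RPS27L, are given after their values were seen.

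DDB2, which recognises ultraviolet damage and whose promoter window held the element with 0 mismatches, was highest with miR-29b in LNCaP. It had 9.73 with siTET2 and 9.63 with siControl in LNCaP, and 10.25 with miR-29b and 9.79 with nc. The DU145 values were 8.93 with siTET2 and 9.18 with siControl, and 9.29 with miR-29b and 9.50 with nc. The miR-29b difference was 0.46 in LNCaP and -0.21 in DU145, where siControl minus nc was also below 0, at -0.32. XPC, the partner of DDB2 in damage recognition, differed with siTET2 by 0.42 in LNCaP and 0.10 in DU145. POLH, the translesion polymerase eta, and ASCC3, a helicase of alkylation repair, stayed within 0.10 of 0 in both lines with siTET2.

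The last 8 genes serve metabolism, secretion and other functions, and 5 were above 0 with siTET2 in LNCaP and 3 in DU145. SESN1, a sestrin that restrains growth signalling through mTORC1, had 10.18 with siTET2 and 9.69 with siControl in LNCaP, and 9.58 with miR-29b and 9.89 with nc. In DU145 it had 7.24 with siTET2 and 6.77 with siControl, and 6.48 with miR-29b and 6.73 with nc. In both lines siTET2 was the highest array and miR-29b the lowest, though SESN1 and RPS27L lay below the DU145 floor. The siTET2 difference was 0.49 in LNCaP and 0.48 in DU145, and the miR-29b difference -0.31 in LNCaP and -0.25 in DU145. RPS27L, a ribosomal protein paralog, had 9.70 with siTET2 and 9.36 with siControl in LNCaP, and 9.34 with miR-29b and 9.09 with nc. In DU145 its arrays lay between 7.14 and 7.28, with siTET2 at 7.16 and siControl at 7.28.

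GDF15, a secreted stress cytokine (probe set 8027002), had 12.64 with siTET2 and 12.50 with siControl in LNCaP, and 12.85 with miR-29b and 12.62 with nc. On the DU145 arrays it had 6.88 with siTET2 and 6.29 with siControl, and 5.90 with miR-29b and 6.01 with nc. The DU145 difference of 0.59 with siTET2 stood beside 0.27 between its controls, on a probe set below the DU145 floor. ACER2, a Golgi ceramidase (probe set 8154563), was also below that floor. It had 8.12 with siTET2 and 7.79 with siControl in LNCaP, and 7.71 with miR-29b and 7.93 with nc. The DU145 arrays gave 7.10 with siTET2 and 6.46 with siControl, and 6.66 with miR-29b and 6.36 with nc. The siTET2 array was the highest of each line, and siTET2 minus siControl was 0.33 in LNCaP and 0.64 in DU145. TIGAR, a phosphatase of glycolysis, differed with siTET2 by 0.33 in LNCaP and -0.09 in DU145. BLOC1S2, a subunit of complexes for lysosome-related organelles, differed by -0.21 in LNCaP and -0.47 in DU145. CMBL, a hydrolase, differed by -0.09 in LNCaP and -0.14 in DU145, and ABCA12, a lipid transporter, by -0.03 in LNCaP and -0.04 in DU145.

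An effect shared by LNCaP and DU145 was sought with limma over 9498 genes, in an additive model of line and construct that uses all 8 arrays. Its error term is how far the arrays stray from an equal construct effect in both lines. Of the 33 measured targets, 26 reached the level floor of the fit, and PLK3, SERTAD1, EDA2R, SPATA18, XPC, ACER2 and ABCA12 did not. With siTET2, 0 of the 26 rose and 0 fell at an adjusted p below 0.05, against 0.0316% of genes that rose and 0.347% that fell. At an unadjusted p below 0.05, 8 of the 26 were higher, against 5.53% of genes, and 3 were lower, against 8.33%. These numbers moved with single arrays, to 5 higher and 2 lower without LNCaP siControl, 5 higher and 0 lower without DU145 siTET2, and 6 higher and 1 lower without DU145 siControl. The 8 were CDKN1A, SESN1, PLK2, TNFRSF10B, APAF1, FAS, GADD45A and PHLDA3, and the 3 were BLOC1S2, CCNG1 and DRAM1. Of the 8, SESN1 lay below the DU145 floor, and APAF1 and GADD45A below the LNCaP floor. The share of genes above both floors was not counted for this fit, so 8 of 26 is not a count of targets well detected in both lines.

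CDKN1A came closest to the threshold, at 0.58 (SE 0.0997, adjusted p = 0.0605, limma), followed by SESN1 at 0.48 (SE 0.0953, adjusted p = 0.0770). With a spread that follows the mean level (eBayes with trend), CDKN1A passed at an adjusted p of 0.0381 in limma. The common effect of MDM2 was -0.07 (95% interval -0.38 to 0.23) and that of PPM1D 0.18 (-0.05 to 0.41). Without the LNCaP siTET2 array the effect rests on the DU145 siTET2 array alone. TNFRSF10B was then 0.74 higher with siTET2 and CCNG1 0.88 lower, given as sizes only.

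With miR-29b, limma called 0 of 9498 genes (0.0%) and 0 of the 26 targets in the common fit. At an unadjusted p below 0.05, where 362 genes lay, 0 of the 26 targets were higher (1.15% of genes) and 2 were lower (2.66% of genes). These were SESN1 at -0.28 (SE 0.0953) and PPM1D at -0.27 (SE 0.0994), each with an adjusted p of 0.995 in limma.

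Whether siTET2 acted differently in LNCaP and DU145 was tested with limma, as LNCaP minus DU145 of the treated array minus the mean of both controls of its line. The spread comes from the control arrays alone, and the lone treated array is assumed to vary as they do. For siTET2, limma called 0 of 9498 genes (0.0%) and 0 of the 26 targets, with 436 genes at an unadjusted p below 0.05. At that unadjusted level 7 of the 26 targets were higher in LNCaP than in DU145, against 2.67% of genes, and 1 was lower, against 1.92%. Of the 26, 6 reached the floor through 1 line only: SESN1, GDF15 and RPS27L lay below it in DU145, and GADD45A, APAF1 and TP53I3 in LNCaP. Among the 20 above the floor in both lines, 5 were higher, against 2.39% of genes, and 0 were lower, against 1.66%. With no level floor 3 of 33 were higher and 1 lower, and with eBayes trend 4 of 26 were higher and 2 lower. The restriction to targets that pass both floors was chosen after seeing the data.

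Among the 26 targets ZMAT3 differed most between the lines with siTET2, by 0.87 (95% interval 0.29 to 1.45, adjusted p = 0.897, limma). CCNG1 differed by 0.69 (0.23 to 1.15), RRM2B by 0.67 (0.19 to 1.16), and MDM2 by 0.50 (0.06 to 0.95), each with an adjusted p of 0.897 or more in limma. For TIGAR the difference was 0.49 (0.02 to 0.96). RPS27L at 0.53 (0.03 to 1.03), dim in DU145, and TP53I3 at 0.50 (0.03 to 0.98), dim in LNCaP, each lay below the floor of that line. For CCNG1 the difference came with siTET2 below siControl in both lines, further so in DU145. GDF15, below the DU145 floor, was the target lower in LNCaP, at -0.64 (-1.15 to -0.14). For CDKN1A the interval of the line difference ran from -0.24 to 0.68 and for SESN1 from -0.57 to 0.37, so both a larger and a smaller effect in LNCaP lie within them.

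**Figure D4:**
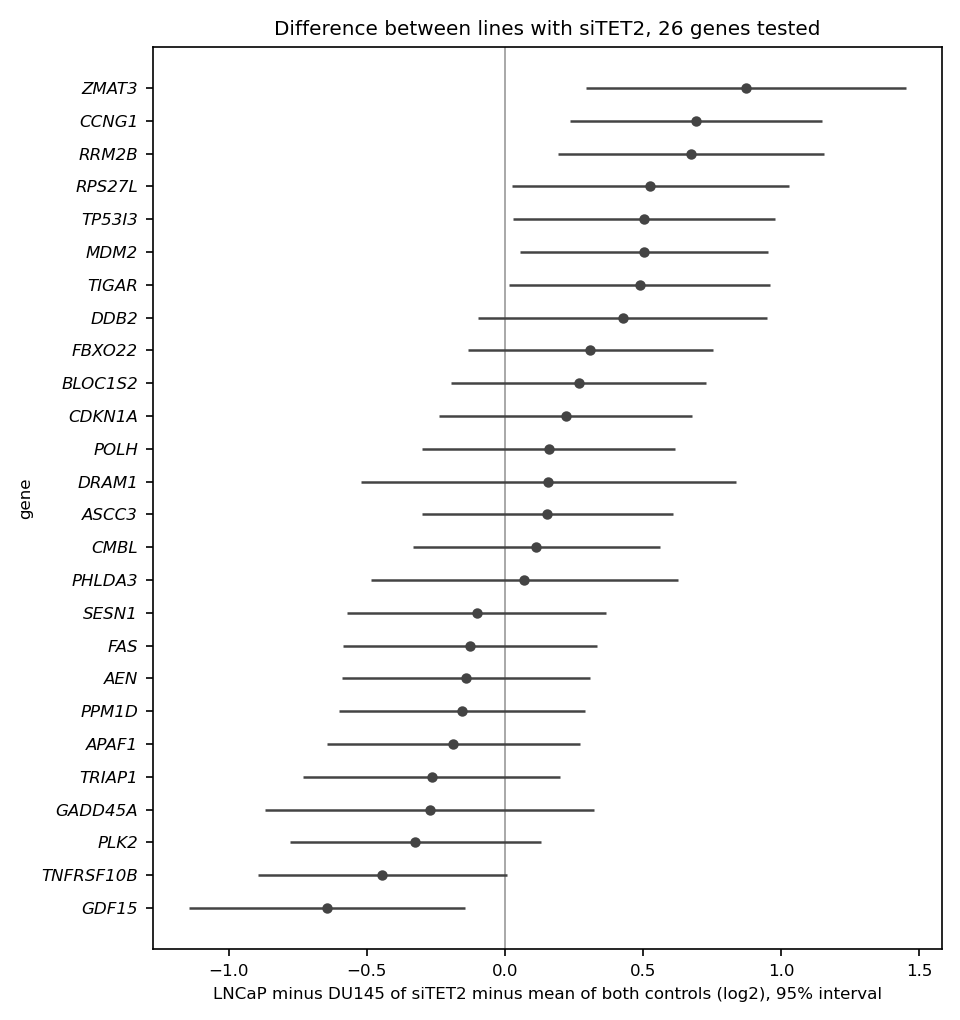
Difference between the lines, LNCaP minus DU145, in siTET2 minus the mean of both controls (horizontal axis, log2 units) for the 26 p53 target genes in the fit; points are limma estimates and bars their 95% intervals, not adjusted for the number of genes. The intervals of ZMAT3, CCNG1, RRM2B, RPS27L, TP53I3, MDM2 and TIGAR lie above 0 and that of GDF15 below it, and 0 genes passed after adjustment.

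With miR-29b minus nc, 22 of the 33 targets lay above 0 in LNCaP (median 0.13) and 12 in DU145 (median -0.04). They sorted into 8 above 0 in both lines, 14 in LNCaP but not in DU145, 4 in DU145 but not in LNCaP, and 7 in neither. For this sort, too, the share of all genes in each class was not counted. Of the targets above the floor, 19 of 27 were above 0 in LNCaP, against 56.0% of genes, and 5 of 23 in DU145, against 34.8%. Against siControl in place of nc, 12 of the 27 were above 0 in LNCaP (50.6% of genes) and 6 of the 23 in DU145 (47.4% of genes). The LNCaP median of the 27 was 0.14 against nc and -0.02 against siControl, so its sign depended on which control was used. Of the 20 targets above the floor in both lines, 16 had the larger miR-29b difference in LNCaP, against 66.0% of genes.

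ZMAT3 alone was at least 1.5-fold higher with miR-29b in LNCaP, against 0.516% of genes, and 0 targets above the floor were at least 1.5-fold lower, against 0.242%. In DU145 0 of the 23 passed 1.5-fold in either direction, against 0.0737% of genes higher and 0.0421% lower. The line difference for miR-29b was called by limma for 0 of 9498 genes (0.0%), with 136 genes at an unadjusted p below 0.05. At that level 4 of the 26 targets were higher in LNCaP, against 1.0% of genes, and 0 were lower, against 0.432%. Among the 20 above the floor in both lines 2 were higher, against 0.733% of genes, and 0 lower, against 0.336%, and with no level floor 1 of 33 was higher. The 4 of the 26 were ZMAT3 at 0.81 (95% interval 0.23 to 1.39), GADD45A at 0.60 (0.01 to 1.19), DDB2 at 0.59 (0.07 to 1.12) and GDF15 at 0.54 (0.04 to 1.04), each with an adjusted p of 1.0 in limma. GADD45A lay below the LNCaP floor and GDF15 below the DU145 floor. The siTET2 and miR-29b line differences share their control arrays.

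Between the control arrays themselves, siControl minus nc, 18 of the 33 targets lay above 0 in LNCaP and 23 in DU145. Of those above the floor, 16 of 27 were above 0 in LNCaP, against 54.5% of genes, and 15 of 23 in DU145, against 42.4%. In LNCaP 1 of the 27 was at least 1.5-fold higher, DRAM1, against 1.54% of genes, and 0 were lower, against 0.347%. In DU145 0 of the 23 passed 1.5-fold, against 0.137% of genes higher and 0.158% lower. The targets ranged from -0.36 to 0.65 in LNCaP and from -0.32 to 0.47 in DU145, beside the siTET2 ranges of -0.60 to 0.74 in LNCaP and -0.83 to 0.69 in DU145. These contrasts share siControl.

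The lines also differed in the level of most of the targets. As percentiles of the gene probe sets of an array, 18 of the 33 targets were higher on all 4 LNCaP arrays than on any DU145 array, against 35.9% of 18995 probe sets that stand for genes. For 8 of the 33 all LNCaP arrays were lower, against 27.7%, and 7 overlapped. GDF15 had the widest gap, at the 99.3rd percentile in LNCaP and the 33.4th in DU145 (medians of 4 arrays). ABCA12 stood at 65.4 in LNCaP and 6.10 in DU145, SPATA18 at 60.9 in LNCaP and 15.5 in DU145, and SESN1 at 82.4 in LNCaP and 41.2 in DU145. MDM2 lay at 96.9 in LNCaP and 89.2 in DU145, and CDKN1A at 76.3 in LNCaP and 60.2 in DU145. Lower in LNCaP were DRAM1, at 55.4 against 78.8 in DU145, APAF1, at 39.4 against 61.3 in DU145, and TP53I3, at 42.9 against 59.5 in DU145. The 4 arrays of a line are 1 line under 4 constructs, so these gaps describe the lines as cultured here.

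**Figure D5:**
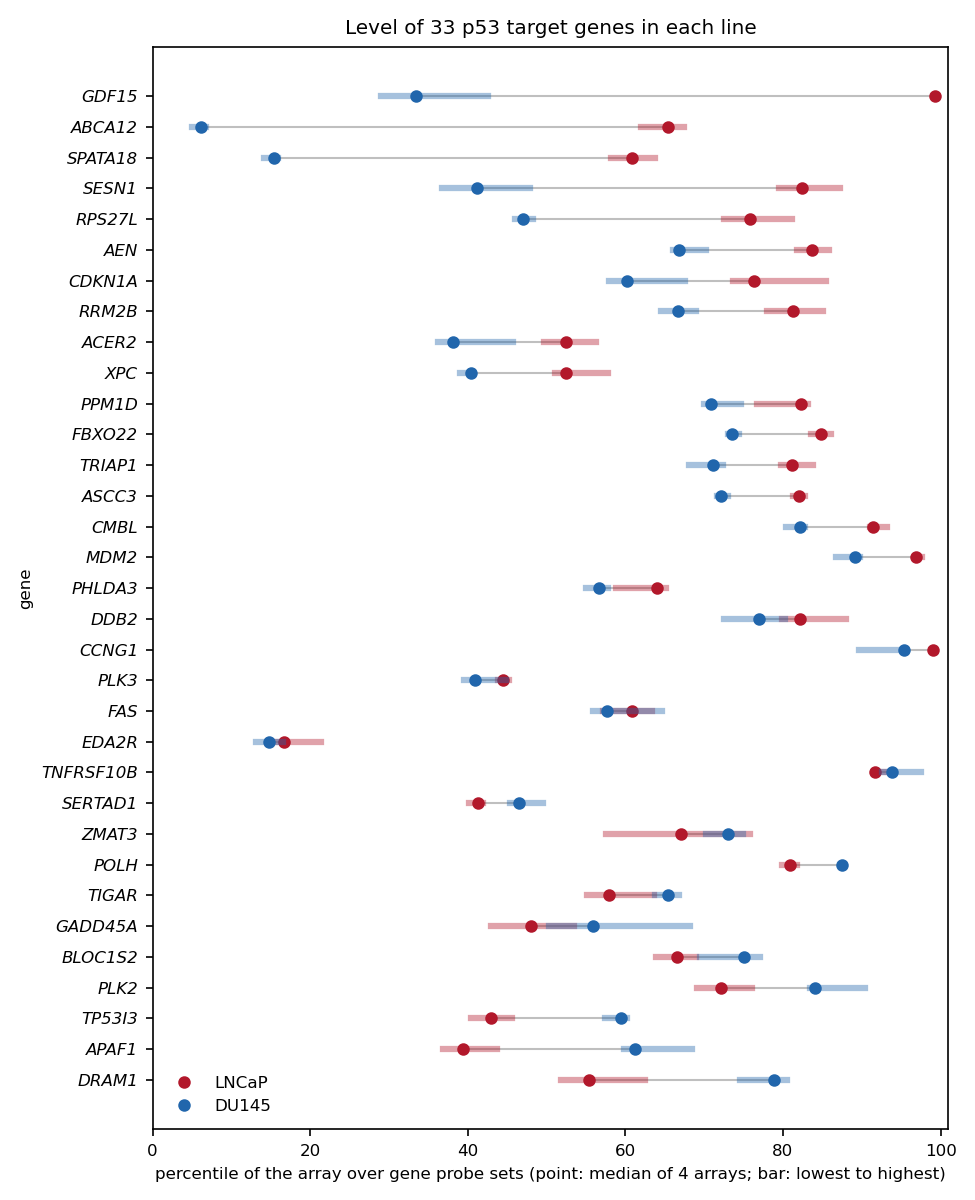
Level of the 33 measured p53 target genes as a percentile of each array's gene probe sets (horizontal axis) in LNCaP (red) and DU145 (blue); points are medians of 4 arrays, bars run from the lowest to the highest array, and genes are ordered by the gap between the lines. GDF15 lies at 99.3 in LNCaP and 33.4 in DU145, and DRAM1 at 55.4 in LNCaP and 78.8 in DU145.

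In the limma fit of levels, on values centred on each array's median, 15 of the 26 targets were higher in LNCaP than in DU145 at an adjusted p below 0.05, against 36.3% of genes. Another 10 were lower, against 42.3% of genes, and FAS was not called. These counts hold the 6 targets that passed the floor through the line where they are high, which had to differ. Among the 20 above the floor in both lines, 12 were higher, against 35% of genes, and 7 were lower, against 41.0%. Of these 20, the difference was 1.21 for CCNG1 (SE 0.114) and 1.18 for MDM2 (SE 0.0909), and it was -1.50 for DRAM1 (SE 0.114) and -1.11 for PLK2 (SE 0.0789). As a description only, it was 6.09 for GDF15, 2.73 for SESN1 and 1.87 for RPS27L, and -1.49 for APAF1 and -1.06 for TP53I3. On values as deposited, 5156 genes were higher and 2604 lower, against 3448 higher and 4018 lower after centring, and quantile normalization gave 4417 higher and 3164 lower. ZMAT3 at -0.47 and TIGAR at -0.48 were not called on values as deposited, FAS was then called as higher at 0.36 (adjusted p = 0.00308, limma), and ZMAT3 was not called after quantile normalization. With 1 array left out, DDB2 at 0.33 lost its call without a miR-29b or a siTET2 array of either line (adjusted p = 0.0747 or 0.0528, limma), and ZMAT3 without an nc or a siControl array (adjusted p = 0.0721 or 0.0855).

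Of the 7 targets with a promoter match, AEN, FAS, GDF15, MDM2, RPS27L and SESN1 were above 0 with siTET2 in LNCaP by 0.12 to 0.49, and DDB2 by 0.10. In DU145 AEN, FAS, GDF15 and SESN1 were above 0 and DDB2, MDM2 and RPS27L below it.

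Other genes of the p53 pathway came from lists beside the 35. Of 45 measured genes from a list of other p53-induced genes, 39 lay above 0 with siTET2 in LNCaP (median 0.16) and 27 in DU145 (median 0.05). Of those above the floor these were 30 of 33 in LNCaP, against 53.0% of genes, and 21 of 32 in DU145, against 46.8%. In the common fit limma called 1 of 32 as higher, against 0.0316% of genes, and 1 as lower, against 0.347%. TP53INP1, a nuclear stress protein that binds p53, rose by 0.62 (SE 0.0916, adjusted p = 0.0356, limma), and PERP, a desmosome protein, fell by 1.26 (SE 0.156, adjusted p = 0.0261). SESN2, a sestrin that is also induced by ATF4, was not called, at 0.39 in LNCaP and 1.24 in DU145. TRIM22, an antiviral ubiquitin ligase, lay below the floor of the fit and was not tested, at 0.92 in LNCaP and -0.08 in DU145. With miR-29b, 24 of the 45 were above 0 in LNCaP and 11 in DU145, and PMAIP1, the BH3-only protein NOXA, was 0.87 higher in LNCaP.

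Of 25 measured regulators and partners of p53, 9 lay above 0 with siTET2 in LNCaP and 9 in DU145, and limma called 0 of 24 in the common fit of siTET2. At an unadjusted p below 0.05 limma had 1 higher and 1 lower. The checkpoint kinase gene CHEK1 differed by -0.70 in LNCaP and 0.11 in DU145, and CHEK2 by -0.61 in LNCaP and -0.11 in DU145. HIPK2, a kinase of p53, differed by -0.04 in LNCaP and 0.53 in DU145, and KMT5A, a methyltransferase of p53 and histones, by -0.19 in LNCaP and -0.45 in DU145.

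Genes that p53 is known to lower through p21 and the DREAM repressor were lower with siTET2 in LNCaP, where 0 of 29 lay above 0, against 53.0% of genes, and the median was -0.58. In DU145 5 of 29 lay above 0, against 46.8% of genes, and the median was -0.13. In the common fit limma called 1 of 29, CDK1, the mitotic cyclin-dependent kinase, which fell by 0.83 (SE 0.0983, adjusted p = 0.0216). At an unadjusted p below 0.05, 22 of 29 were lower, against 8.33% of genes. CENPE, a motor of the kinetochore, differed by -0.95 in LNCaP and -0.35 in DU145. ECT2, a factor of cytokinesis, differed by -0.90 in LNCaP and -0.08 in DU145, and MCM10, a replication factor, by -0.87 in LNCaP and -0.27 in DU145. The LNCaP siControl array was high for this list, with 22 of 29 above nc and a median of 0.21.

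Stress and interferon genes moved with some of these arrays, and their part in the values of the p53 targets was not tested. Of 12 ATF4 and CHOP stress genes, 2 lay above 0 with siTET2 in LNCaP (median -0.17) and 9 in DU145 (median 0.14). Of those above the floor these were 1 of 10 in LNCaP, against 53.0% of genes, and 8 of 11 in DU145, against 46.8%. CHAC1, DDIT3 and ATF3 stood at 0.92, 0.81 and 0.79 in DU145 with siTET2. With miR-29b 9 of the 12 lay above 0 in LNCaP (median 0.36). Of 11 interferon-stimulated genes, 11 lay above 0 with miR-29b in LNCaP (median 1.14), led by IFIT2 at 2.62, and 11 with siControl minus nc in DU145 (median 0.79). Only 5 of the 11 reached the level floor in LNCaP and 2 in DU145. Of genes above the floor, 56.0% lay above 0 with miR-29b in LNCaP and 42.4% with siControl minus nc in DU145. Of the 18 known miR-29 targets, 2 lay above 0 with miR-29b in LNCaP (median -0.30) and 5 in DU145 (median -0.06). Above the floor these were 1 of 12 in LNCaP, against 56.0% of genes, and 3 of 12 in DU145, against 34.8%.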

How the data were processed

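Transcripts were measured on 8 Affymetrix arrays, 1 per cell line and construct. The authors deposited expression values for 33297 probe sets, read here as log2 values and made with Affymetrix Expression Console and RMA per the submitters' processing notes. The log base, and which arrays were normalized together, are not given in the sources used here. Gene symbols came from the platform annotation and matched RefSeq by Entrez identifier for all 33 measured targets. A gene was represented by its brightest probe set on average, and probe sets with several symbols were kept. Genes whose mean reached the median gene's mean entered the fits.

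Differences of 2 arrays were counted at 1.5-fold. Fits used limma 3.58.1 in R 4.3.3 (lmFit and eBayes) with Benjamini-Hochberg adjustment over all 9498 genes and a threshold of 0.05. The additive fits had 3 residual degrees of freedom and the fits of the difference between lines 2. The words rose and fell are kept for genes that passed such a test. No label names separate cultures, so the p-values reflect only variation among these arrays, possibly technical, and the number of arrays limits the precision. The fits were tested on simulated data. There the common siTET2 fit called 100% of log2 differences of 1 and 79% of those of 0.5. The simulated noise took each gene's spread as limma estimated it, so these shares can overstate recovery in the data. Among the estimates from the data, CDKN1A at 0.58 and CCNG1 at -0.54 were not called (adjusted p = 0.0605 and 0.207, limma). The fit of the siTET2 difference between lines called 90% of 1 and 14% of 0.5 in the simulation. In the data it called 0 genes, with CHAC1 uncalled at -1.06 (adjusted p = 0.420, limma). Its 0 calls therefore say little about differences near 0.5 or near 1. The targets and lists were chosen with earlier results of these data known. All 35 targets, TET2 and up to 4 genes of each other list with the largest treatment difference were named. Values on every array were due for CDKN1A, MDM2, PPM1D and targets past 1.5-fold, and others are marked. Python 3.11.15 with pandas 2.3.3 made the counts. Alternatives covered the level floor, the control, the normalization, the fold threshold and each array left out.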

Additional observations from a re-analysis of the deposited data

How the results depend on the processing

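The arrays are few and single, so 1 array or 1 control can set a value. For siTET2 in both lines, 36 genes were called, against 1 with no level floor, 80 with a floor at the 75th percentile, 99 with eBayes trend, 15 with nc as control and 0 with no cell line term. Leaving out 1 array gave 0 to 141 genes, with 0 without DU145 siTET2 or without siControl of LNCaP or of DU145, and 141 without LNCaP siTET2. Targets called with all 8 arrays kept numbered 0, against 1 with trend (CDKN1A), and the 0 did not hold without LNCaP siTET2. Fits without a siTET2 or siControl array rest on 1 array of that construct, so their counts show only how far single arrays matter. The targets' median of 0.12 ran from -0.014 (without LNCaP siTET2) to 0.18. That median for miR-29b, 0.06, ran from -0.05 to 0.11. TET2 lost its call without DU145 siTET2 or either siControl array (adjusted p 0.0723 to 0.345, limma), with no level floor (0.0723) and with no cell line term (0.9999). Between the lines' levels, 7466 genes were called, against 14886 with no floor and 3761 with the floor at the 75th percentile, where fewer or more genes were tested, and 13 targets were called there against 25. The targets' median of 0.45 was 0.54 with no floor, 0.61 at the 75th percentile, 0.61 after quantile normalization and 0.75 as deposited. In LNCaP with siTET2, the targets lower by 1.5-fold numbered 1, and 0 against nc, against the mean of both controls, at the 75th percentile and at 2-fold. Those higher numbered 2, and 1 at the 75th percentile, 9 at a log2 difference of 0.32 and 0 at 2-fold. DRAM1 changed sign against nc, at 0.051. In DU145 with siTET2, those higher numbered 1, and 3 against nc, against the mean of controls and with no floor, 6 at a log2 difference of 0.32 and 0 at 2-fold. Those lower numbered 1, and 3 at a log2 difference of 0.32 and 0 at 2-fold, and the median of -0.05 was -0.19 at the 75th percentile. With miR-29b in LNCaP those higher numbered 1, and 0 against the mean of controls, at the 75th percentile and at 2-fold, and 5 at a log2 difference of 0.32; those lower numbered 0, and 1 at a log2 difference of 0.32. The LNCaP median of 0.14 was -0.023 against siControl. In DU145 those lower with miR-29b numbered 0, and 1 against siControl (GADD45A, -0.63). Other causes of these shifts were not tested. Every target had 1 probe set with 1 symbol, so the alternatives for several probe sets and several symbols left its values as they were. Among the other values, 1237 kept direction and call, 107 moved by more than the spread, 16 lost a call and 4 gained one. The additive fits set each construct beside its control within a line. No paired analysis was possible because the labels give no replicate numbers to block on beyond the line.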
